A study of Homo sapiens with 12 samples.

Results

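The promoters of DUSP11, MOB1A, SMG5, TMEM79, CYSTM1, C19orf44, RABIF, ETNK1, AUNIP and TANC1 lay beside the H3K4me3 peak regions whose width differed most between control BON1 cells and BON1 cells overexpressing HA-Bcl-xL. At 5 regions, beside 6 of these genes, more bases lay under peaks in both HA-Bcl-xL libraries than in any control library. At the other 4 regions, beside RABIF, ETNK1, AUNIP and TANC1, fewer bases did. The genes were chosen from that measure itself, so widths in these regions are a description and carry no test. Peaks of 5 libraries were merged into 30435 regions, 4926 of which held a peak in every library. These were ranked in each direction by the unadjusted p of a limma fit of the bases under peaks, and the first 5 in each direction were taken. The 10 genes, of 20136 protein-coding genes, lie at 9 of those 10 regions, with SMG5 and TMEM79 sharing one. The region ranked second among those wider in control cells, at chr5:42810897-42811179, lies 53977 bp from the nearest protein-coding 5′ end, that of CCDC152, and gave no listed gene.

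BON1 is a human pancreatic neuroendocrine tumor cell line. The control line is labelled BON1/TGL/pQ and the other BON1/TGL/HA-Bcl-xL, which overexpresses an HA-tagged form of the anti-apoptotic protein Bcl-xL. Both grew in a medium with puromycin, and 500000 cells were used per condition. H3K4me3 was profiled in 3 control libraries (replicates 1 to 3) and 2 HA-Bcl-xL libraries (replicates 2 and 3), and a rabbit anti-mouse IgG gave the background in 3 replicates of each line. Replicate 1 of H3K4me3 with HA-Bcl-xL was not analysed here. The labels do not say whether replicates came from separate cultures or whether a line is 1 clone, so any p measures only the spread between these samples.

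Trimethylation of lysine 4 on histone H3 is laid down by the SET1 and MLL methyltransferase complexes around the start sites of active genes. It is usually carried by the nucleosomes flanking a nucleosome-poor start site, so a promoter can show a peak on either side of its 5′ end. In CUT&RUN cells are permeabilized, an antibody tethers a nuclease to the mark, and the short fragments it cuts free are sequenced. A peak's width in such a list is the stretch over which fragment pile-up passed the peak caller's threshold, so it is set by depth and background as well as by the mark.

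The H3K4me3 lists held 10247 to 17711 peaks, with 9 to 12 fragments at the median summit, a number solved from each peak's deposited fold and −log10 p. The background floor, which scales with depth, was 0.0659, 0.0705 and 0.0478 fragments per base in the controls, in replicate order, against 0.0692 and 0.0681 with HA-Bcl-xL. Control replicate 3 had the lowest floor of the H3K4me3 libraries. The lists give no read totals. Marker genes were searched for a peak in the 2.5 kb either side of their 5′ end. Of 10 neuroendocrine genes, 4 (CHGB, SCG2, SCG3 and INSM1) had one in all 5 H3K4me3 libraries, as did 25.6% of all 20136 genes. In at least 1 library 9 of 10 had one, a count for which the share of all genes was not computed. CHGA and ENO2 had one in 1 library, SYP and TPH1 in 2 and SLC18A1 in 4, while DDC had none. Of markers of other cells, 1 of 4 fibroblast genes (COL1A1, in 1 library), 0 of 4 leukocyte genes, 0 of 2 endothelial genes and 0 of 2 hepatocyte genes had one. These are also counts for any library, without the share of all genes.

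Over all 4926 regions, limma called 0 (0%) at an adjusted p under 0.05, and the smallest adjusted p, found at DUSP11, MOB1A, RABIF and ETNK1, was 0.453, a value they shared with the region on chromosome 5 that gave no gene. At an unadjusted p under 0.05 it gave 101 regions wider in HA-Bcl-xL (2.05%) and 158 wider in control libraries (3.21%), 259 in all, where 246.3 would be the average with no difference anywhere. Both HA-Bcl-xL libraries exceeded all control libraries at 9.34% of regions and lay below all of them at 7.8%. Across all regions the median absolute change was 0.22 on the log2 scale, and 2.11% changed by more than 1. The 9 regions all passed 1, because of how they were chosen. The next region in the direction of HA-Bcl-xL, near DIAPH1, had 174, 145 and 102 bp in the controls against 311 and 388 bp with HA-Bcl-xL (log2 change 1.30). The next in the direction of control, 19610 bp from the 5′ end of KDELR2, had 278, 440 and 226 bp against 110 and 81 bp (−1.72). The last regions inside, CYSTM1 and TANC1, are given below with 1.39 and −1.59.

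**Figure D1:**
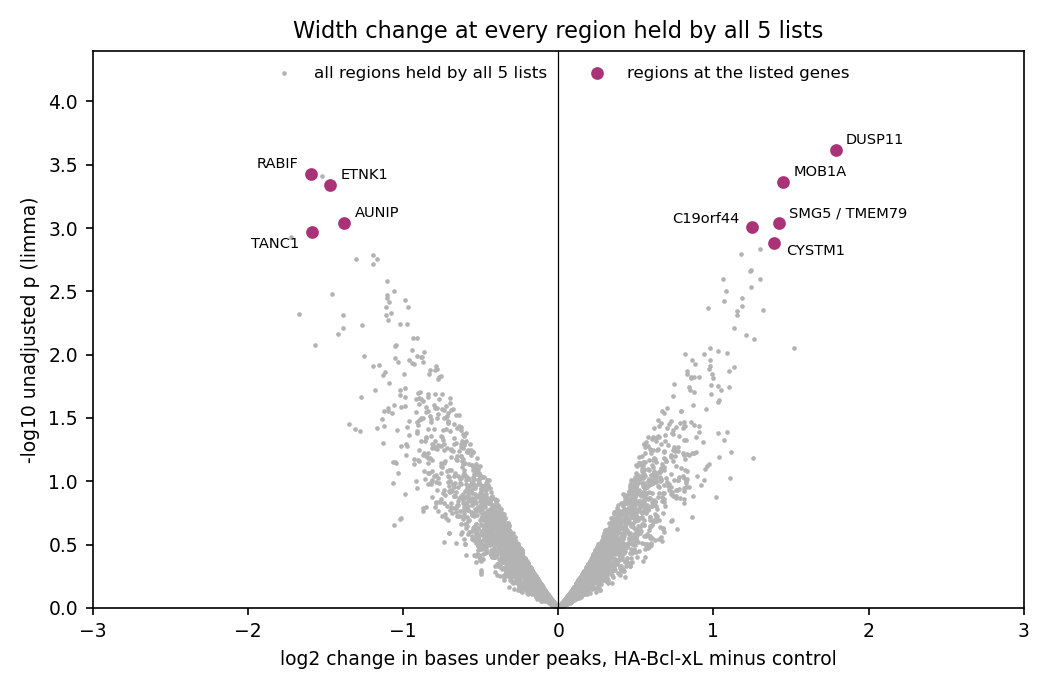
Each point is 1 of the 4926 regions with a peak in all 5 H3K4me3 libraries, by its log2 change in bases under peaks (x axis, HA-Bcl-xL minus control) and the −log10 of limma's unadjusted p (y axis). The 9 regions at the listed genes, in purple, are at the upper edges of the cloud because that is how they were picked.

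Sequence from 5 of the regions shows where the libraries differed base by base. DUSP11 and MOB1A are shown as the first and second ranked of the regions wider in HA-Bcl-xL. CYSTM1, C19orf44 and AUNIP are shown because bases covered in every library of one line and in none of the other, outside untranslated exons, were most numerous there. Sequences are GRCh37 on the gene's own strand, 5′ to 3′. Capitals mark bases that peaks of HA-Bcl-xL replicates 2 and 3 both cover and no control peak does, except for AUNIP, where they mark bases under peaks in all 3 controls but in neither HA-Bcl-xL library. The stretches are chr2:74006475-74006774 (minus strand) for DUSP11, chr2:74406007-74406247 (minus) for MOB1A, chr5:139555266-139555565 (plus) for CYSTM1, chr19:16606979-16607204 (plus) for C19orf44 and chr1:26186079-26186328 (minus) for AUNIP.
DUSP11: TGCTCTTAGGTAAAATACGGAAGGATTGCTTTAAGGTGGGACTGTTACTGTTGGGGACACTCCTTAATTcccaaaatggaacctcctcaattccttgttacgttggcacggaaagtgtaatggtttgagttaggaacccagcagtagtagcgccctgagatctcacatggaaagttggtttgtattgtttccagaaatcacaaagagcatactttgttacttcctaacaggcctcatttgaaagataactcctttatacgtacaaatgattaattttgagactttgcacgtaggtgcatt
MOB1A: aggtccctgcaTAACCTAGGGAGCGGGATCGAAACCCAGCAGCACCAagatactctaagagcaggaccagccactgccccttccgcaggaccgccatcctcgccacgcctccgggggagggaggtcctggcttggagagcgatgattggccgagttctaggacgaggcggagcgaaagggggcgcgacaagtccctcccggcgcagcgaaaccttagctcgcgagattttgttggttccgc
CYSTM1: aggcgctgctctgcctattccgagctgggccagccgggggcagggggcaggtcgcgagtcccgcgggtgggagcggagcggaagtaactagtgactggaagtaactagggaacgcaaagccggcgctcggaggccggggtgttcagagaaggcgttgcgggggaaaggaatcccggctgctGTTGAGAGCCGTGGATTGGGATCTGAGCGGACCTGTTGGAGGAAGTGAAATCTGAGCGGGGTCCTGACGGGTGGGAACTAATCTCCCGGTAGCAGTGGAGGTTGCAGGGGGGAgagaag
C19orf44: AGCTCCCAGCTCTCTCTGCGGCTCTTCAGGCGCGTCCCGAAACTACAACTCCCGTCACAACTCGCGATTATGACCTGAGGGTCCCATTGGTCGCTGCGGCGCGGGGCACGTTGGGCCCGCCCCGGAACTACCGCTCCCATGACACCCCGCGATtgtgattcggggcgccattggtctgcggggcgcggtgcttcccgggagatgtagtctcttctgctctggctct
AUNIP: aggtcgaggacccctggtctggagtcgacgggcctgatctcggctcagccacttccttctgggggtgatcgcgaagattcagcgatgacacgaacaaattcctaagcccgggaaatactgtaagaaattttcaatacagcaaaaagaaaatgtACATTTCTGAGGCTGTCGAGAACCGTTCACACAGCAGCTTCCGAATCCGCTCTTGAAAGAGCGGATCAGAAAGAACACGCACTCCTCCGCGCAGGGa
The capitals make up 69 of 300 bases for DUSP11, 36 of 241 for MOB1A, 113 of 300 for CYSTM1, 153 of 226 for C19orf44 and 96 of 250 for AUNIP. In DUSP11, CYSTM1 and AUNIP they form 1 run. In MOB1A they lie at the end farther from the gene, and 12 more such bases lie outside the printed stretch. In C19orf44 they reach from the base next to the 5′ end of CALR3, on the other strand, to the outer edge of the control peaks.

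DUSP11 encodes a phosphatase that removes phosphates from the 5′ end of RNA. Its region, chr2:74006458-74006982, lies 277 to 801 bp inside the gene, whose 5′ end is at 74007259 on the minus strand, with 413 bp in intron and 112 bp in a noncoding exon. It held 141, 91 and 84 bp under peaks in the controls, given in replicate order here and below, against 317 and 418 bp with HA-Bcl-xL. The control mean was 105 ± 31.1 bp (SD, n = 3) and the HA-Bcl-xL mean 368 ± 71.4 bp (SD, n = 2), a log2 change of 1.79 (SE 0.277), or 0.97 with peaks within 500 bp merged. Every library had a single peak there. The control peaks ran from 554 to 694, 604 to 694 and 718 to 801 bp, so that of replicate 3 did not touch the other two. Those of HA-Bcl-xL ran from 485 to 801 and from 277 to 694 bp. Edges recurred: 3 libraries ended at 694 bp and 2 at 801 bp. No base was covered by all 5 libraries, and the union of the control peaks, 225 bp, was shorter than either HA-Bcl-xL peak. Height did not separate the lines, with 12, 15 and 9 fragments at the control summits and 12 and 16 at the HA-Bcl-xL summits.

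MOB1A encodes an adaptor that activates the LATS kinases of the Hippo pathway. Its region, chr2:74405984-74406247, spans the 5′ end at 74406025 (minus strand), from 222 bp upstream to 41 bp inside the gene. Of its bases 222 are intergenic, 23 untranslated exon and 19 noncoding exon. The control libraries had 101, 85 and 86 bp against 245 and 264 bp with HA-Bcl-xL, means of 90.7 ± 8.96 (SD, n = 3) and 254.5 ± 13.4 bp (SD, n = 2), and a log2 change of 1.45 (SE 0.246), or 0.49 with peaks within 500 bp merged. Control peaks in replicates 1 and 2 lay 165 to 65 and 175 to 91 bp upstream, and that of replicate 3 lay between 64 bp upstream and 21 bp inside the gene. The HA-Bcl-xL peaks covered both positions in one stretch, from 211 and 222 bp upstream to 33 and 41 bp inside. The 3 control peaks laid over each other covered 197 of the 264 bp. Summits held 9, 6 and 10 fragments in control and 9 and 11 in HA-Bcl-xL libraries, so the groups overlapped in height.

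SMG5 and TMEM79 are divergent neighbours with 5′ ends 110 bp apart, at 156252616 (minus strand) and 156252726 (plus strand) of chromosome 1. SMG5 is a factor of nonsense-mediated mRNA decay, and TMEM79, or mattrin, is a membrane protein of epidermal lamellar granules. The shared region, chr1:156252753-156253139, lies inside TMEM79, 27 to 413 bp from its 5′ end, with 104 bp in untranslated exon and 283 bp in intron, and 137 to 523 bp upstream of SMG5. It had 114, 96 and 109 bp in the controls against 341 and 251 bp with HA-Bcl-xL, means of 106 ± 9.29 (SD, n = 3) and 296 ± 63.6 bp (SD, n = 2), and a log2 change of 1.42 (SE 0.272). From the 5′ end of TMEM79, control peaks ran from 63 to 176, 74 to 169 and 304 to 412 bp. HA-Bcl-xL replicate 2 had 1 peak from 73 to 413 bp. HA-Bcl-xL replicate 3 had 2, from 27 to 198 and 334 to 412 bp, which matched the positions seen singly in the control libraries. By the highest summit of each library, HA-Bcl-xL had 18 and 19 fragments here against 15, 11 and 6 in the controls. This was the only 1 of the 9 regions where that value did not overlap between the lines. The second peak of HA-Bcl-xL replicate 3 had 12 fragments, fewer than control replicate 1. Fragments were not adjusted for depth, and the share of all regions with such a separation was not computed.

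CYSTM1 encodes a small cysteine-rich transmembrane protein. Its region, chr5:139555266-139555580, is wholly intronic, 525 to 839 bp from the 5′ end at 139554741 on the plus strand. The control libraries had 125, 133 and 78 bp against 274 and 315 bp with HA-Bcl-xL, means of 112 ± 29.7 (SD, n = 3) and 294.5 ± 29.0 bp (SD, n = 2), and a log2 change of 1.39 (SE 0.281). Control peaks ran from 581 to 705, 537 to 669 and 610 to 687 bp, and HA-Bcl-xL peaks from 545 to 818 and 525 to 839 bp. All 5 shared 60 bp. The extra width lay mostly on the side farther into the gene, where the 113 bp in capitals above begin at the end of the control peaks. Summits held 8, 8 and 7 fragments in control and 12 and 8 in HA-Bcl-xL libraries.

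C19orf44 is an uncharacterised gene, and the 5′ end of CALR3, a calreticulin-family chaperone of the testis, lies 227 bp upstream of it on the other strand. The region chr19:16606940-16607304 runs from 265 bp upstream to 99 bp inside C19orf44 (5′ end 16607205, plus strand) and so covers both 5′ ends. It had 158, 139 and 120 bp in the controls against 365 and 311 bp with HA-Bcl-xL, means of 139 ± 19 (SD, n = 3) and 338 ± 38.2 bp (SD, n = 2), and a log2 change of 1.25 (SE 0.241). All control peaks stayed at the C19orf44 end, from 66, 55 and 73 bp upstream to 91, 83 and 46 bp inside the gene. The HA-Bcl-xL peaks kept that end, at 99 and 83 bp inside, and reached 265 and 227 bp upstream, across the interval between both genes. They covered 154 bp that no control peak covered, and 102 bp were common to all 5. Summits of 13, 10 and 6 fragments in control and 8 and 7 in HA-Bcl-xL libraries overlapped, and all 5 lay within 38 bp of the 5′ end of C19orf44.

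**Figure D2:**
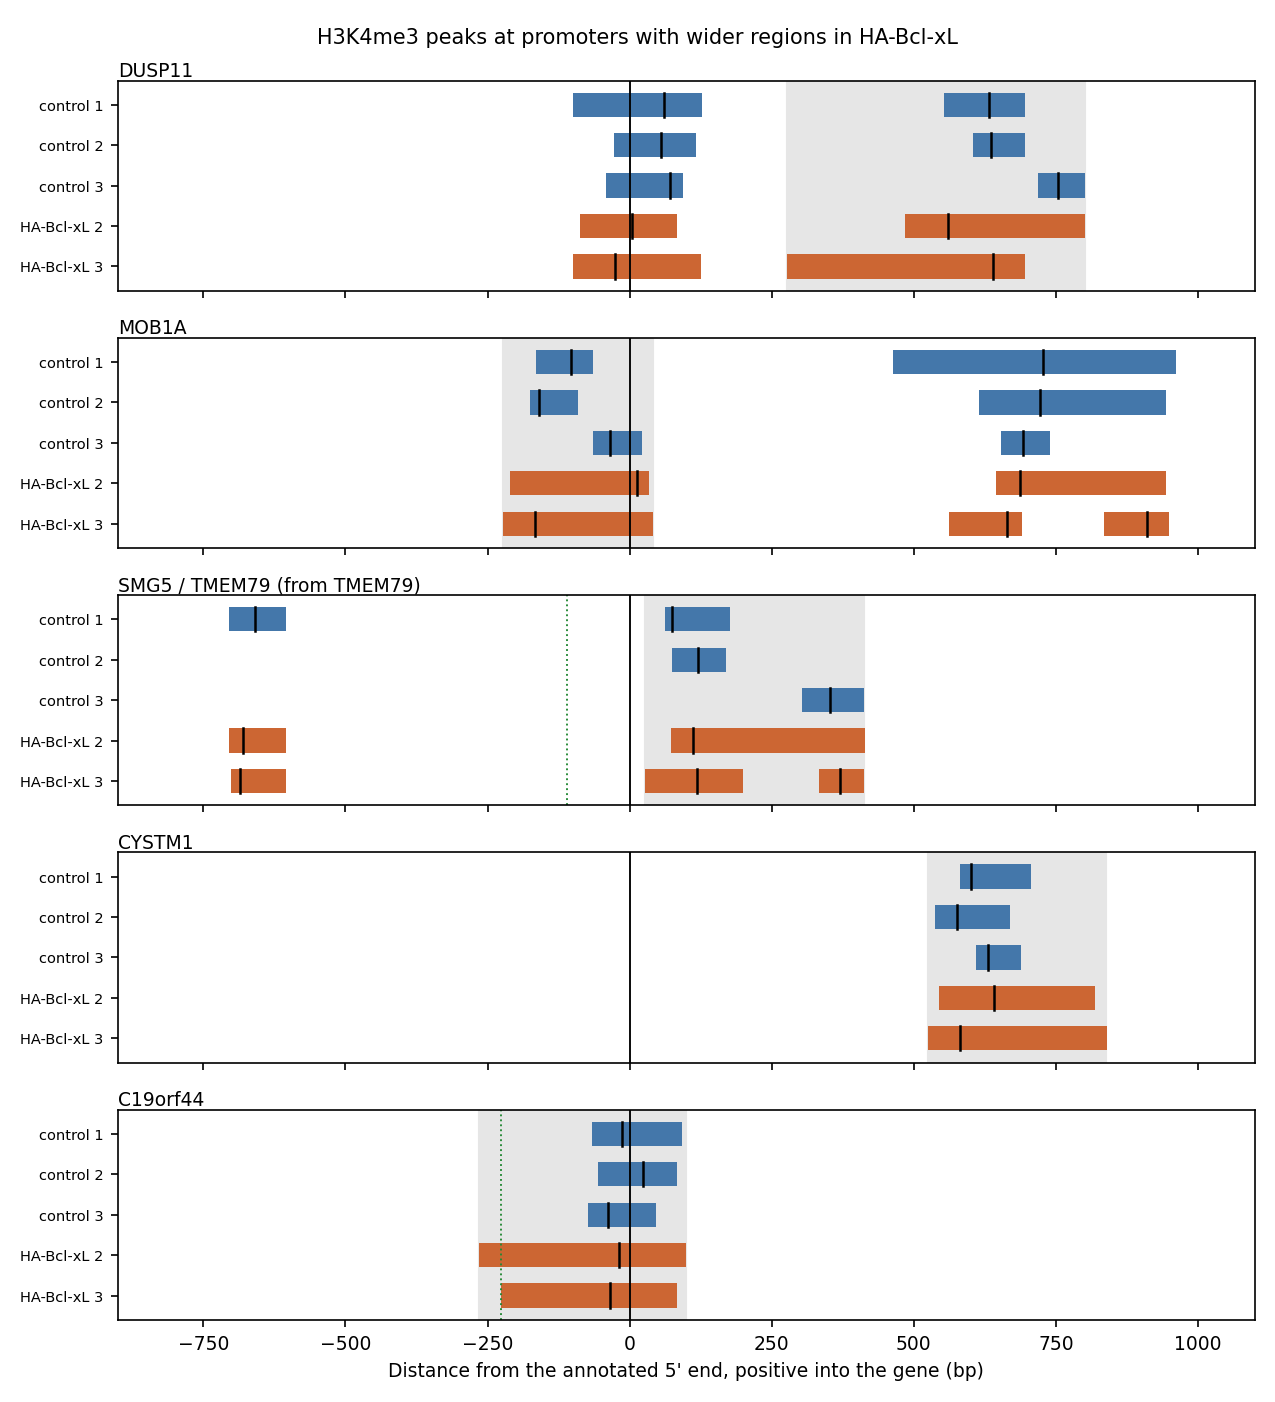
Bars are the peaks of each of the 5 H3K4me3 libraries within 2.5 kb of the 5′ ends of DUSP11, MOB1A, SMG5/TMEM79, CYSTM1 and C19orf44, with a tick at each summit. The x axis is the distance from the 5′ end in bp, positive into the gene, the grey band the region used to choose the gene, and the green dotted line a neighbouring gene's 5′ end; within the grey bands the HA-Bcl-xL bars are longer, while the bars outside them overlap between the lines in length.

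Among the regions wider in control libraries, that of RABIF ranked first. RABIF, or MSS4, is a chaperone that binds Rab GTPases of the secretory pathway such as RAB10. Its region, chr1:202857261-202857724, is intronic, 553 to 1016 bp from the 5′ end at 202858277 on the minus strand. It had 421, 281 and 232 bp in the controls against 113 and 94 bp with HA-Bcl-xL, means of 311 ± 98.1 (SD, n = 3) and 104 ± 13.4 bp (SD, n = 2), and a log2 change of −1.59 (SE 0.263), or −0.11 with peaks within 500 bp merged. Control peaks ran from 556 to 976, 553 to 833 and 750 to 981 bp. The HA-Bcl-xL peaks, from 753 to 865 and from 923 to 1016 bp, did not touch each other. Only 3 bp were covered in all 3 controls but in neither HA-Bcl-xL library. Summits held 10, 11 and 9 fragments in control and 9 and 12 in HA-Bcl-xL libraries.

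ETNK1 is the ethanolamine kinase that starts the CDP-ethanolamine route to phosphatidylethanolamine. Its region, chr12:22778905-22779282, lies 896 to 1273 bp from the 5′ end at 22778009 on the plus strand, with 230 bp in untranslated exon and 148 bp in intron. It had 378, 303 and 310 bp in the controls against 113 and 132 bp with HA-Bcl-xL, means of 330 ± 41.4 (SD, n = 3) and 123 ± 13.4 bp (SD, n = 2), and a log2 change of −1.47 (SE 0.251). The control peaks, from 896 to 1273, 944 to 1246 and 964 to 1273 bp, shared 283 bp, the most of any of the 9 regions. The HA-Bcl-xL peaks, from 1133 to 1245 and 1099 to 1230 bp, lay inside all of them, so 136 bp were covered in every control library and in neither HA-Bcl-xL library. The highest summit in the 9 regions was here, at 21 fragments in control replicate 1, with 14 and 15 in the other controls and 15 and 20 with HA-Bcl-xL.

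AUNIP encodes a protein that binds Aurora A kinase and ninein and takes part in DNA end resection. Its region, chr1:26186079-26186328, lies 130 to 379 bp upstream of the 5′ end at 26185949 (minus strand). All 250 bp fall in a noncoding exon of the divergent lncRNA ENSG00000236528, whose 5′ end is 122 bp upstream of AUNIP and 8 bp from the region. It had 250, 196 and 231 bp in the controls against 84 and 94 bp with HA-Bcl-xL, means of 226 ± 27.4 (SD, n = 3) and 89.0 ± 7.07 bp (SD, n = 2), and a log2 change of −1.38 (SE 0.263). The control peaks began 130 or 131 bp upstream and ended 379, 326 and 360 bp upstream. The HA-Bcl-xL peaks covered 277 to 360 and 227 to 320 bp upstream, leaving free the 96 bp nearest the gene that are in capitals above. Control summits lay 133 to 146 bp upstream with 7, 6 and 7 fragments, and HA-Bcl-xL summits 291 and 272 bp upstream with 8 and 5.

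TANC1 encodes a scaffold of the postsynaptic density. Its region, chr2:159825847-159826390, is intronic, 695 to 1238 bp from the 5′ end at 159825152 on the plus strand. It had 272, 313 and 164 bp in the controls against 73 and 93 bp with HA-Bcl-xL, means of 249.7 ± 77.0 (SD, n = 3) and 83.0 ± 14.1 bp (SD, n = 2), and a log2 change of −1.59 (SE 0.311). Control peaks ran from 912 to 1183 and 695 to 1007 bp, and control replicate 3 had 2, from 722 to 807 and 1001 to 1078 bp. The HA-Bcl-xL peaks, from 1166 to 1238 and 1133 to 1225 bp, lay at the far edge, and 42 bp of both were outside every control peak. Only 7 bp were covered in all controls but in neither HA-Bcl-xL library. The highest summit of each library held 13, 12 and 11 fragments in control and 11 and 10 in HA-Bcl-xL libraries. The second peak of control replicate 3 had 9.

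**Figure D3:**
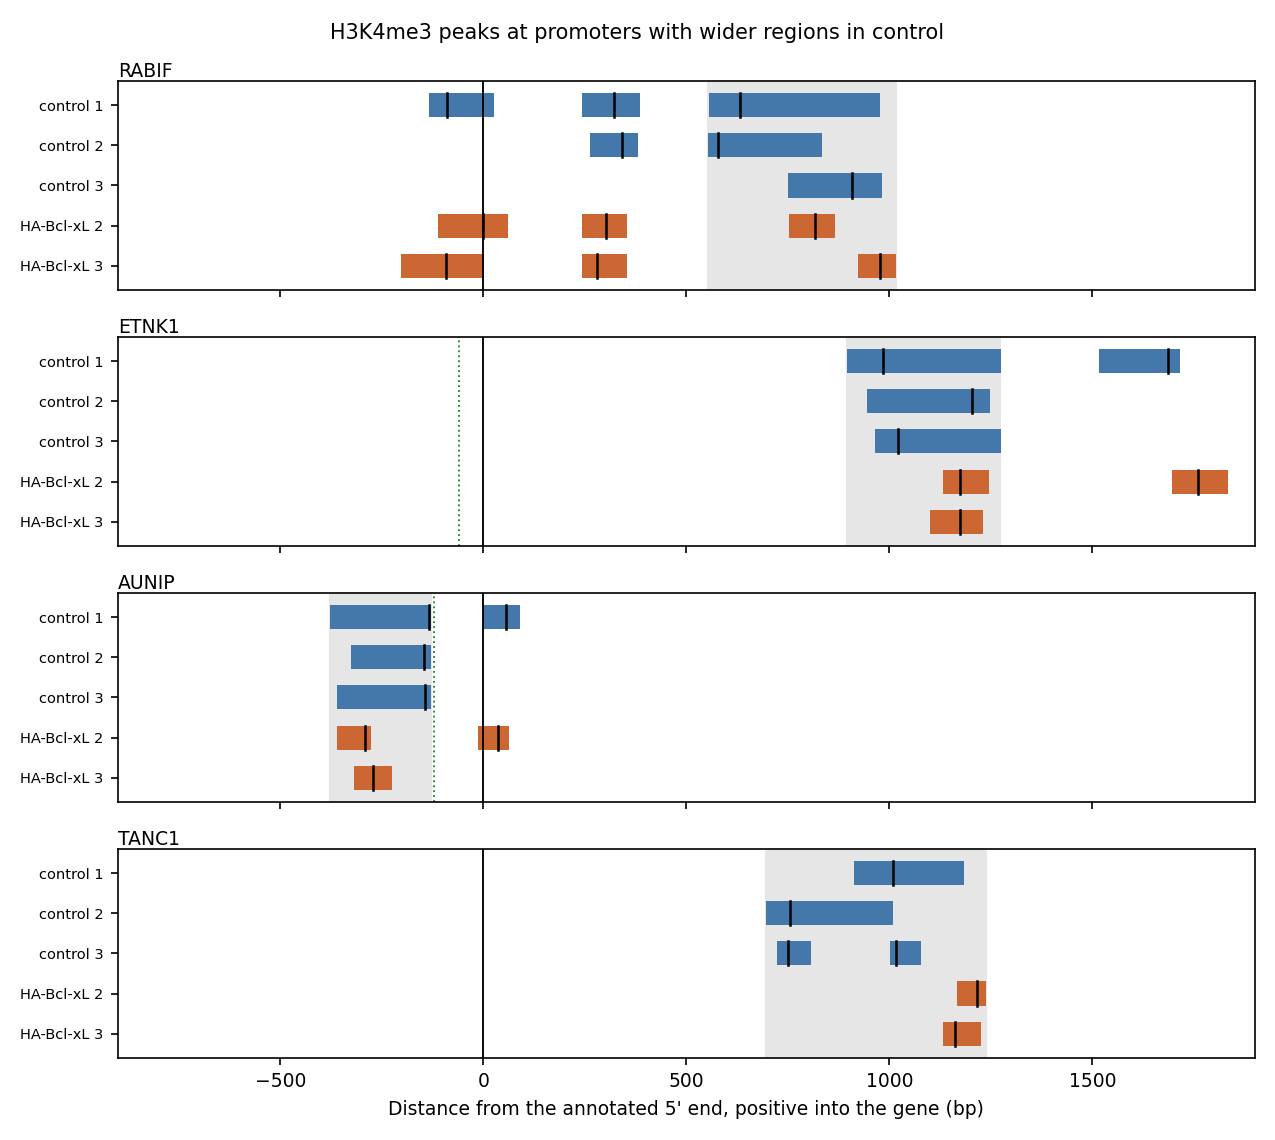
Bars are the peaks of each of the 5 H3K4me3 libraries within 2.5 kb of the 5′ ends of RABIF, ETNK1, AUNIP and TANC1, drawn as distance from the 5′ end in bp, positive into the gene, with a tick at each summit, the region used to choose the gene as a grey band and a lncRNA's 5′ end as a green dotted line. In the grey bands the control bars are longer; at ETNK1 the HA-Bcl-xL bars lie inside the control bars, and at TANC1 they lie at the edge farther from the 5′ end.

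**Figure D4:**
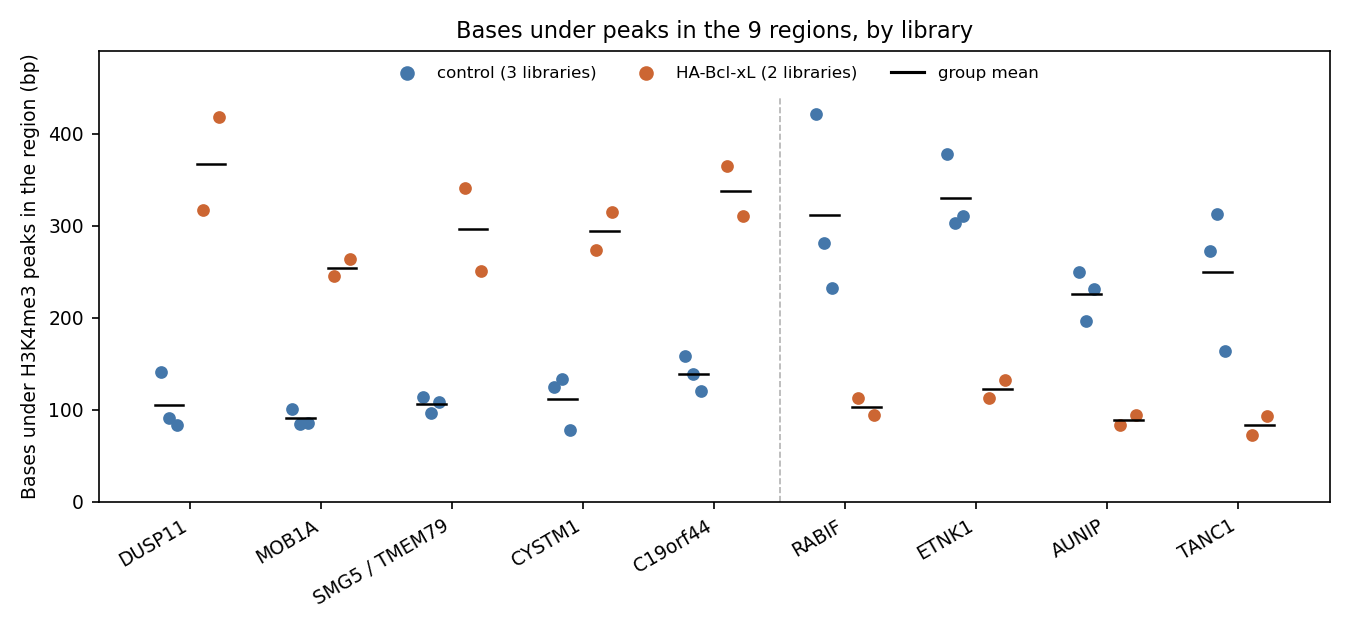
Points are the bases under peaks in each of the 9 regions (y axis, bp) in the 3 control and 2 HA-Bcl-xL libraries, and black lines are group means. Left of the dashed line are the regions wider in HA-Bcl-xL, where control values were 78 to 158 bp; right of it are the regions wider in control cells, where HA-Bcl-xL values were 73 to 132 bp.

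In 5 of the 9 regions (DUSP11, MOB1A, SMG5/TMEM79, RABIF and TANC1) no base was under a peak in all 5 libraries, against 7.39% of all 4926 regions, where the median was 96 common bases. The median merged length was 378 bp, against 260 bp. Both follow in part from the choice, since peaks that differ in width or place lengthen a merged region, and neither was tested. A region was split into more than 1 peak in a library at 2 of 9, against 18.4% overall. The 9 regions overlapped a protein-coding 5′ end at 2 (MOB1A and C19orf44), against 31.0% overall.

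The peaks were of about the usual height for their lists. The 47 peaks in the 9 regions rested on 5 to 21 fragments at the summit, median 10, where the medians of the whole lists were 9 to 12, and ranked at a median percentile of 46.9 by −log10 p within their own lists (range 1.46 to 89.9). On the narrow side of each comparison the 23 values ranged from 73 to 158 bp, median 101 bp. Of these, 6 were within 10 bp of the narrowest peak in their list, which is 73 to 82 bp, and CYSTM1 in control replicate 3 and TANC1 in HA-Bcl-xL replicate 2 equalled it. On the wide side the 22 values ranged from 164 to 421 bp, median 292 bp, and 0 were that close. These are sums, however, and single peaks within 2 of them were near that minimum: 86 and 78 bp in control replicate 3 at TANC1, and 79 bp in HA-Bcl-xL replicate 3 at SMG5/TMEM79. When peaks were required to have a −log10 q of at least 5, 3 regions (DUSP11, C19orf44 and ETNK1) were still held by all 5 libraries, while 6 lost a library. Of all regions 69.4% were still held. What part depth and the caller's threshold have in the widths was not tested.

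The median GC content of the 9 regions was 51.6%, against 56.9% for all regions (quartiles 47.3 and 63.5%). It was 62.9% for those wider in HA-Bcl-xL and 48.3% for those wider in control, a difference that was not tested, and the ranges overlapped. The 5 wider in HA-Bcl-xL ranged from 46.5% at DUSP11 to 66.0% at C19orf44, and the 4 wider in control from 41.3% at ETNK1 to 58.8% at TANC1. The promoters themselves, taken as 250 bases before to 50 after the 5′ end, had 53 to 78% GC, median 62.8%, against 60.3% for all 20136. Short motifs were searched on both strands. The CCAAT box was in 6 of the 10 promoters, against 35.8% of all. The GC box, GGGCGG, was in 6, against 52.2%. The ETS-type letters CCGGAAG were in 2, CYSTM1 and C19orf44, against 11.8%, and both of these also held the other boxes. The NRF1 motif was in 1, RABIF, against 6.92%. The letters TATAAA were in 0, against 10.9%, and the YY1-type letters AAGATGGCG were in 0, against 1.87%. These are letter matches, not binding sites.

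The width of the chosen region was not always the width of the promoter. All bases under peaks within 2.5 kb of each 5′ end were summed next. This includes the chosen region, so it is again a description. Over 5151 genes with a peak in that window in all 5 libraries, limma called 0 (0%) at an adjusted p under 0.05, and the smallest adjusted p was 0.733. At an unadjusted p under 0.05 it gave 109 wider with HA-Bcl-xL (2.12%) and 160 wider in control cells (3.11%). Both HA-Bcl-xL libraries exceeded all control libraries at 9.44% of genes and lay below them at 5.77%. Of the 10 listed genes, 5 were in the first class (DUSP11, SMG5, TMEM79, CYSTM1 and C19orf44) and 3 in the second (ETNK1, AUNIP and TANC1). MOB1A and RABIF were in neither. These counts follow from the choice of genes, and nothing is read from them.

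MOB1A had 599, 413 and 172 bp in the controls against 543 and 507 bp with HA-Bcl-xL, a log2 change of 0.47 (SE 0.438). RABIF had 724, 399 and 232 bp against 396 and 409 bp, a log2 change of −0.13 (SE 0.424). In both genes the control libraries spanned the HA-Bcl-xL values. DUSP11 had 367, 235 and 220 bp against 488 and 643 bp, a log2 change of 0.95 (SE 0.415), smaller than the 1.79 of its region. SMG5 and TMEM79 both had 213, 96 and 109 bp against 440 and 348 bp, a log2 change of 1.46 (SE 0.419). ETNK1 had 578, 303 and 310 bp against 252 and 132 bp (−1.17, SE 0.429), and AUNIP 342, 196 and 231 bp against 162 and 94 bp (−1.13, SE 0.426). For CYSTM1, C19orf44 and TANC1 the region was the only one in the window, and centring on the window median gave 1.31, 1.17 and −1.67.

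The bases in the window but outside the chosen region were not used to choose the genes. They overlapped between the lines at all 7 genes that had any. By their means they were higher with HA-Bcl-xL at 6 of these genes (SMG5 and TMEM79 sharing 1 window) and lower at MOB1A. At ETNK1 and AUNIP the means differed by only 2.83 and 8.33 bp. The share of all windows in this direction was not computed, so nothing is read from the count. At DUSP11 a second region over the 5′ end itself, from 99 bp upstream to 126 bp inside, had 226, 144 and 136 bp in the controls against 171 and 225 bp with HA-Bcl-xL (two-sided exact permutation p = 0.6). Its summits held 16 to 21 fragments, and those of the chosen region farther in 9 to 16. At MOB1A a second region 464 to 961 bp inside the gene had 498, 328 and 86 bp against 298 and 243 bp (exact permutation p = 0.8), with its shortest peak in control replicate 3. A comparison of 2 libraries with 3 cannot reach a p below 0.2 in this test, which doubles the smaller tail.

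At SMG5 a peak 496 to 594 bp inside the gene was present in control replicate 1 (99 bp) and in HA-Bcl-xL replicates 2 and 3 (99 and 97 bp), and not in control replicates 2 and 3 (exact permutation p = 0.6). At RABIF there were 2 other positions. One, 242 to 385 bp inside, had 143, 118 and 0 bp in the controls against 110 and 112 bp with HA-Bcl-xL. The other, over the 5′ end, had 160, 0 and 0 bp against 173 and 203 bp. Together they came to 303, 118 and 0 bp against 283 and 315 bp (exact permutation p = 0.4), in the opposite direction to the chosen region by their means. At ETNK1 (200, 0 and 0 bp against 139 and 0 bp) and AUNIP (92, 0 and 0 bp against 78 and 0 bp) the other peak was in control replicate 1 and HA-Bcl-xL replicate 2 (exact permutation p = 1 for each). At these 5 genes, TMEM79 included, control replicate 1, which had the longest list, held every such peak, and control replicate 3, which had the shortest, held none.

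Peak number in the window, counting SMG5 and TMEM79 once, was higher on average with HA-Bcl-xL at 5 of 9 windows, lower at 1 and equal at 3. Over the 5151 genes it was higher at 48.4% and lower at 29.5%. DUSP11 had 2 peaks in every library, and CYSTM1 and C19orf44 had 1. MOB1A had 2 except for 3 in HA-Bcl-xL replicate 3. SMG5 and TMEM79 had 2, 1 and 1 in control and 2 and 3 in HA-Bcl-xL libraries. RABIF had 3, 2 and 1 against 3 and 3, so it had more peaks on average in the line where its chosen region was narrower. ETNK1 and AUNIP both had 2, 1 and 1 against 2 and 1, and TANC1 had 1, 1 and 2 against 1 and 1. In no gene did the numbers separate the lines.

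**Figure D5:**
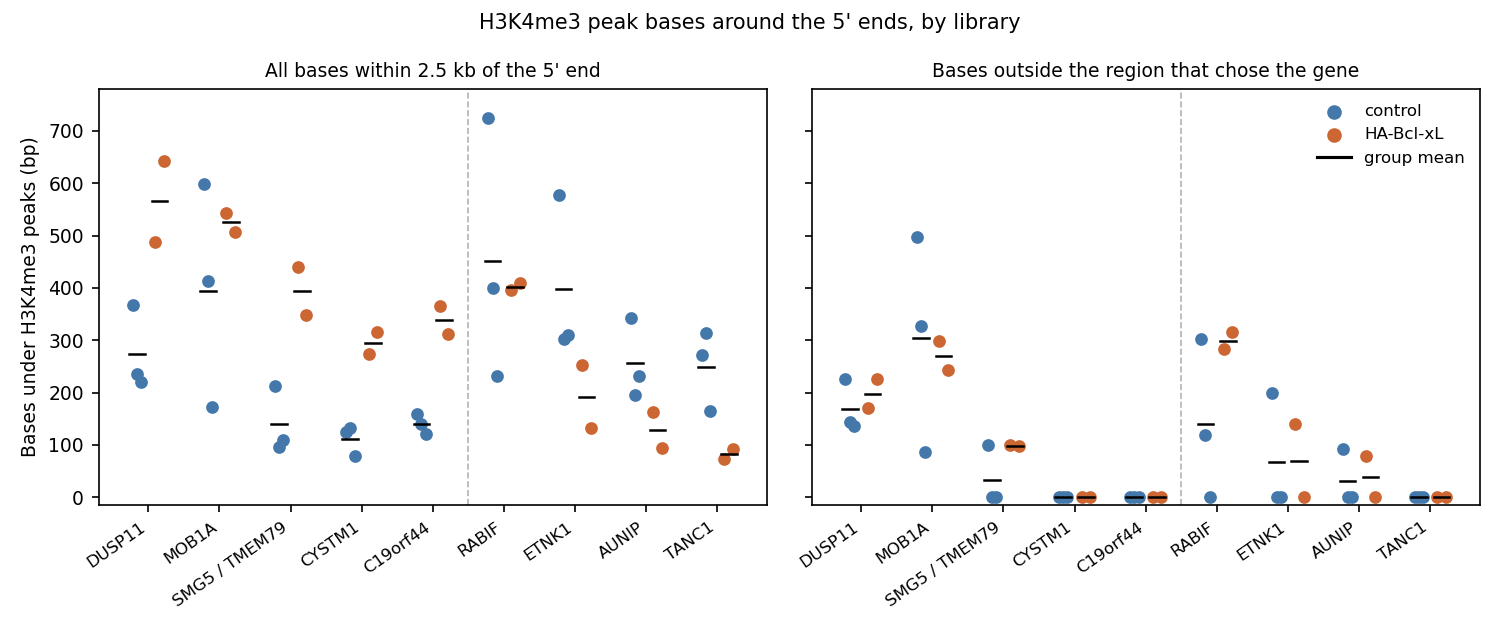
Points are bases under H3K4me3 peaks (y axis, bp) in each control and HA-Bcl-xL library for all peaks within 2.5 kb of the 5′ end and for the peaks outside the chosen region, with group means as black lines. Over the whole window the lines overlap at MOB1A and RABIF, and outside the chosen region they overlap at every gene that has such peaks.

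Neighbouring promoters shared the measure rather than adding to it. CALR3 lay at the same peaks as C19orf44, so its window held the same 158, 139, 120, 365 and 311 bp. The lncRNA ETNK1-DT starts 60 bp upstream of ETNK1, 956 bp from the chosen region. No other gene's most 5′ annotated end lay within 2.5 kb of that of DUSP11, MOB1A, CYSTM1, RABIF or TANC1. In the IgG libraries 0 peaks lay within 2.5 kb of any of the 10 genes, in 3 control and 3 HA-Bcl-xL replicates, while 297 of 20136 genes (1.47%) had an IgG peak there in at least 1 library.

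Genes with the most similar profile were found by the root-mean-square difference of centred log2 window bases over 5 libraries, among 5141 other genes. Closest to the mean profile of the genes wider in HA-Bcl-xL were STAP2 and MPND, which share a window with 264, 159 and 118 bp in the controls against 330 and 430 bp with HA-Bcl-xL (difference 0.175). Closest to the genes wider in control were EID1, with 454, 263 and 223 bp against 211 and 142 bp (0.114), and VAPA, with 396, 265 and 207 bp against 173 and 189 bp (0.204). In all of them control replicate 1 was the widest and control replicate 3 the narrowest of the control libraries.

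Partners of the listed genes in their pathways had no called window: limma gave 0 at an adjusted p under 0.05 in each list and, leaving out the 10 genes themselves, 0 at an unadjusted p under 0.05. Counts of genes with a peak in every library follow, where 25.6% of all genes had one. Each list includes its listed gene, which had one by the choice, so the count without it is also given. Among nonsense-mediated decay factors, 6 of 10 had a peak in all 5 libraries, or 5 without SMG5. Besides SMG5, SMG1, the kinase that phosphorylates UPF1, had 209, 165 and 150 bp in the controls against 287 and 282 bp with HA-Bcl-xL (log2 change 0.60). SMG6, the endonuclease of the pathway, had 137, 158 and 118 bp against 114 and 85 bp (−0.59). UPF1, SMG8 and SMG9 overlapped between the lines. SMG1 and SMG6 are 1 of 5 in each direction, against 9.44% and 5.77% of all windows, and neither passed an unadjusted p under 0.05. The median log2 change of the 5 other than SMG5 was 0.01, near the −0.02 of all windows.

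Among Hippo genes, 4 of 11 had a peak in every library, or 3 without MOB1A. STK3, the kinase upstream of LATS, had 176, 125 and 188 bp in the controls against 86 and 117 bp with HA-Bcl-xL. STK3 was 1 of 3 with HA-Bcl-xL below all controls, against 5.77% of all windows. Its log2 change was −0.80, against 0.64 for LATS1 and 0.29 for SAV1, whose groups overlapped. The median of these 3 was 0.29. In the list of RABIF and its Rab partners, 4 of 5 had a peak in every library, or 3 without RABIF. RAB10 had 220, 163 and 325 bp in the controls against 326 and 365 bp with HA-Bcl-xL, a log2 change of 0.49 (SE 0.472). Its groups were kept apart only by 325 against 326 bp. RAB10 was 1 of 3 with HA-Bcl-xL above all controls, against 9.44% of all windows, while RAB13 and RAB3A overlapped. Of the CDP-ethanolamine and CDP-choline routes 2 of 9 genes had a peak in every library, or 1 without ETNK1. PCYT2, which acts directly after ETNK1, had 151, 153 and 110 bp in the controls against 0 and 0 bp with HA-Bcl-xL, so it could not enter the fit. It was named after its values were seen, and 50 of 20136 genes (0.248%) had peaks in that pattern. The reverse, a peak in each HA-Bcl-xL library and in no control, was seen at 166. PCYT2 was picked from all the partner lists, so 0.248% is not the rate for such a pick. A link to ETNK1 was not tested. In the same list CEPT1 had 504, 239 and 0 bp against 426 and 304 bp, and CHKA had a peak in HA-Bcl-xL replicate 3 alone. Of dual specificity phosphatases 2 of 6 had a peak in every library, or 1 without DUSP11. In the list of AUNIP and its partners 2 of 5 had one, or 1 without AUNIP. In the TANC family 1 of 2 had one, or 0 without TANC1. The genes of these lists other than the listed DUSP11, AUNIP and TANC1 overlapped between the lines where they had a peak in every library.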

How the data were processed

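Per the labels, CUT&RUN was done on BON1 cells, and 1 peak list per library was deposited. The submitters' processing notes name bcl2fastq 2.20, Trimmomatic 0.36, Bowtie2 2.2.9, MACS2 2.1.1, deepTools 3.5.1 and hg19, with no roles or settings. The authors' score is the integer part of 10 times their −log10 q. The deposited fold enrichment and the deposited −log10 p and −log10 q values are per peak and were used only within a list, apart from solving fragments. Summit fragments, n, were solved as whole numbers from fold = (n + 1) / (background + 1) and a Poisson tail, to within 0.001 in −log10 p, for at least 99.9% of peaks in each H3K4me3 list. That n stands for fragments and not single reads is assumed.

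Autosomal, X and Y peaks were merged where they touched. Bases under peaks, as log2 centred on each library's median, were fitted with limma 3.58.1 (R 4.3.3), with Benjamini-Hochberg adjustment over all regions or genes. Windows reach 2.5 kb either side of the most 5′ annotated end (GENCODE release 44 lifted to GRCh37). Coordinates are 1-based. Exact permutation tests (scipy 1.17.1) were two-sided, over 10 splits, with the smaller tail doubled. The members, gene lists, motifs and tests were chosen with earlier results of these data known. Named genes were the listed ones, coding neighbours, the next ranked regions, the 2 nearest profiles per direction, and partners whose groups did not overlap. PCYT2, CEPT1, CHKA, LATS1, SAV1, RAB13, RAB3A, UPF1, SMG8 and SMG9 were named after their values were seen. PECAM1 had no match in the annotation. Alternatives were equal list lengths, a −log10 q of at least 5, merging within 500 bp, a 1 kb window, no centring, ends of all transcripts, removal of peaks overlapping IgG peaks, leaving out each library, and a replicate block. Counting error is understated where PCR copies were counted.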

Additional observations from a re-analysis of the deposited data

How the results depend on the processing

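The 9 regions were chosen on these widths, so their direction under the alternatives is largely fixed by that choice and is no sign of stability. Over the 88 alternative fits the log2 change ran from −1.79 to 2.02. Limma called 0 of the regions tested at an adjusted p under 0.05 in all 11 alternatives (167 to 318 at an unadjusted p under 0.05, smallest adjusted p 0.314). The changes of DUSP11, MOB1A and RABIF with peaks within 500 bp merged, which joins further peaks to a region, stand in the report. No width could be fitted at a −log10 q of at least 5 for MOB1A, SMG5/TMEM79, CYSTM1, RABIF, AUNIP and TANC1, or with equal list lengths for MOB1A, CYSTM1, RABIF, AUNIP and TANC1, since a library lacked a peak. Windows could not be fitted at that q for SMG5, TMEM79, CYSTM1, AUNIP and TANC1, with equal list lengths for CYSTM1, AUNIP and TANC1, or at 1 kb for ETNK1 and TANC1. The windows contain the chosen regions, so their direction is no sign of stability either. Among the window values that could be fitted, RABIF's, −0.13 in the report, changed sign in 4: 0.04 (0.0425) at a −log10 q of at least 5, 0.14 (0.135) with equal list lengths, 0.06 (0.0554) with the replicate block and the same without control replicate 1 (−0.342 without control replicate 3). Without control replicate 3 MOB1A's window change was 0.15 (0.47 in the report), and without HA-Bcl-xL replicate 3 ETNK1's was −0.76 (−1.17). The count of windows called by limma, 0 in the report, was 2 with the replicate block (GNB1 and ETV5). Leaving out single libraries gave 0 to 3: 2 without HA-Bcl-xL replicate 2, 3 without HA-Bcl-xL replicate 3, each time with the lone library assumed to vary like the others. GNB1 and ETV5 have libraries with 1 to 3 bases at the window's edge, and none of the genes called is a listed one. Same-numbered libraries did not deviate together (correlations −0.0146 and 0.0259 for replicates 2 and 3), so the numbers are not shown to pair them. Genes whose bases outside the chosen region were higher on average in HA-Bcl-xL numbered 4 to 7 (6 in the report), and those with more peaks on average 4 to 6 (6), in both cases with SMG5 and TMEM79, which share 1 window, counted apart, and IgG peaks stayed at 0. Summits of 5 to 21 fragments limit how exactly an edge can be placed.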
